A study of Callithrix jacchus with 3 samples.

Results

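The genes described here belong to the transforming growth factor beta (TGF-beta), activin and bone morphogenetic protein (BMP) pathways, in cells of the common marmoset, Callithrix jacchus. The list holds 60 gene symbols, drawn up by pathway membership, with earlier results of these data known. An Ensembl gene ID in the count files could be matched to 41 of them, out of 30811 gene IDs in each file, and the other 19 are named in the last paragraph. RNA sequencing was done on 3 libraries of 1 group, labelled as extended pluripotent stem cells and called EPSC-like in the series' design text. The series' title says that the cells came from attempts to derive such cells from marmoset embryonic stem cells. No parental line, other condition or control is among the 3 samples, and the labels used here give no culture medium, animal, passage or genotype. All titles begin with No40, which the labels do not explain. The titles number the libraries 1 to 3, and no label says that they came from separate cultures. P-values over the 3 libraries therefore measure only the spread between them, which may be technical.

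Ligands of this family bind pairs of type I and type II receptor kinases at the cell surface, and the type I receptor then phosphorylates SMAD proteins, which enter the nucleus with the common partner SMAD4. Activins, nodal and TGF-beta act through ACVR1B, ACVR1C and TGFBR1 on SMAD2 and SMAD3, while BMPs act through ACVR1, BMPR1A and BMPR1B on SMAD1, SMAD5 and SMAD9. In primate pluripotent cells, activin and nodal signalling is known to sustain the primed state, and BMP signalling is known to promote exit towards amnion, trophoblast-like and mesoderm fates. Transcript levels do not measure the activity of a pathway.

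Total counts were 52327369, 55224475 and 40593244 in libraries 1, 2 and 3. A level is given as CPM, the count scaled by the library's size, so that 1 CPM stood for 52.3 counts in library 1 and 40.8 in library 3. CPM is not divided by gene length, so where a gene is called the highest of its group, or medians of gene groups are given, this describes counts and not relative amounts of transcript. Each gene was tested against 1 CPM, a low reference level, and called above or below it at an adjusted p under 0.05 (edgeR quasi-likelihood F statistic, Benjamini-Hochberg over 23432 genes). Libraries were compared in pairs by the exact conditional binomial test, and a gene was called lower or higher when it also differed at least 1.5-fold. That test compares libraries, not conditions, and takes account of counting noise alone. Libraries 1 and 2 were close, with an SD of the log2 ratio of 0.16 where genes averaged 50 counts or more, and library 3 stood apart, with SDs of 0.54 and 0.55 against them. The limit that 0 counts allow was 0.0736 CPM in library 3, for counting error only, as reads carry no molecular identifiers.

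Most of the matched genes were expressed above the reference level. Of 41 members, 28 were called above 1 CPM, or 68.3%, beside 56.0% of all genes tested and 78.3% of tested genes that have a symbol. A further 6 members were called below it, or 14.6%, beside 37.8% of all genes tested, and 7 were not distinguished from it. The median member stood at 3.58, 3.48 and 3.02 log2 CPM in libraries 1, 2 and 3, and the median gene tested at 1.73, 1.71 and 1.60. Every matched member has a symbol, which many genes tested lack. The medians and the shares below the level therefore compare unlike sets. In the activin/nodal and TGF-beta arm, 15 of 19 members were above the level, 1 was below and 3 were not distinguished. In the BMP arm, 7 of 14 were above, 4 were below and 3 were not distinguished. The remaining 8 members were assigned to both arms or to neither, and 6 of them were above. ACVR2A and ACVR2B, both above the level, were counted in the activin/nodal and TGF-beta arm alone, although some BMPs share these receptors. Arm medians in libraries 1, 2 and 3 were 3.58, 3.48 and 3.16 log2 CPM for activin/nodal and TGF-beta, and 1.56, 1.59 and 1.36 for BMP. These arms hold different genes of unequal length and no test between them was made.

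**Figure D1:**
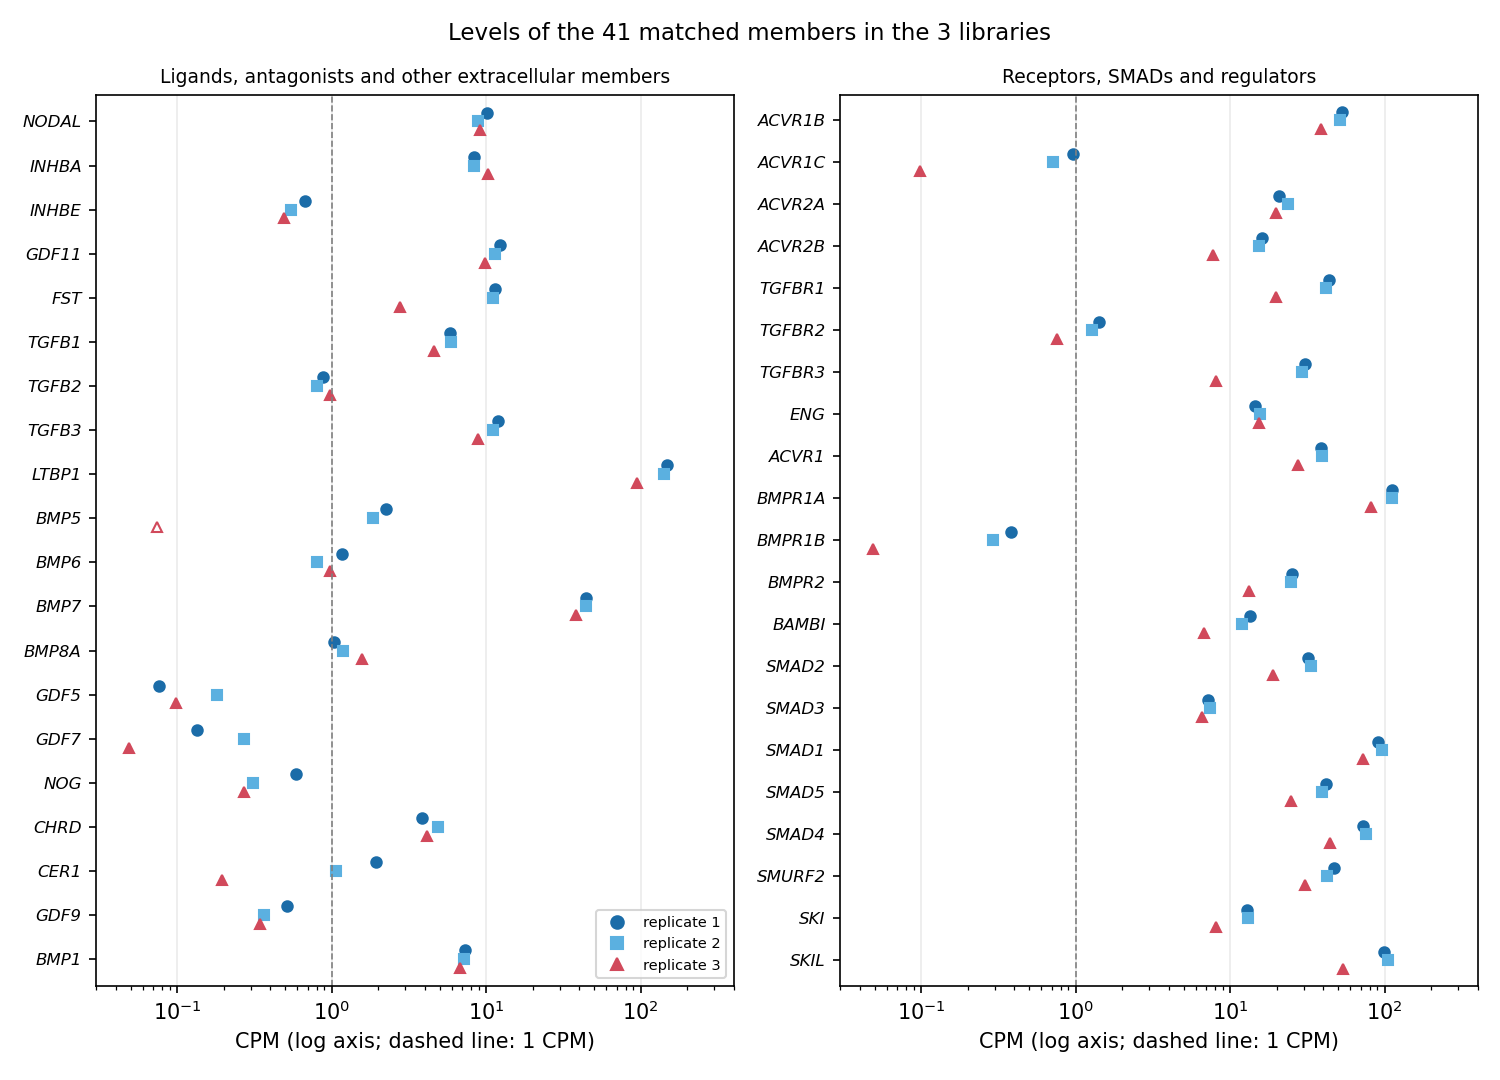
Level of each of the 41 matched members in CPM on a log axis, with 1 point per library (circles, squares and triangles for replicates 1, 2 and 3), and the dashed line at 1 CPM. An open point marks 0 counts and is drawn at the limit of 3 counts, as for BMP5 in replicate 3. Circles and squares lie close together for most members, and the triangle lies below both in 33 of 41.

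Activin and nodal ligand genes were present at similar levels in the 3 libraries. NODAL, the ligand that patterns the early embryo, stood at 10.1, 8.86 and 9.15 CPM in libraries 1, 2 and 3. INHBA, which encodes the subunit of activin A, stood at 8.33, 8.31 and 10.4 CPM, and was the only ligand of this arm above 1 CPM whose level in library 3 exceeded both others. Its ratios of 1.24 and 1.25 were under the 1.5-fold required. GDF11, a ligand related to myostatin, had 12.3, 11.4 and 9.88 CPM and was the highest of the group by CPM. All 3 were called above 1 CPM (adjusted p = 8.2e-09, 1.8e-08 and 4.6e-09, edgeR quasi-likelihood). INHBE, a subunit gene best known in liver, was called below the level with 35, 30 and 20 counts (adjusted p = 0.0193, edgeR quasi-likelihood). That call was lost without library 1 or library 2 (adjusted p = 0.0659 and 0.106, with the gene's own spread ignored).

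FST, the only matched inhibitor gene assigned to this arm alone, did not share the pattern of the ligand genes. LEFTY1, LEFTY2 and FSTL3 had no matched ID. FST encodes follistatin, which binds activin and blocks its access to receptors. It had 595, 610 and 113 counts, or 11.4, 11.1 and 2.77 CPM. Libraries 1 and 2 were thus alike and library 3 was far below them, by 4.10-fold and 4.003-fold (adjusted p = 7.4e-55 and 2.2e-53, exact conditional binomial test). The count ratio of INHBA to FST, in which gene length cancels between libraries, was 0.733, 0.749 and 3.74. CER1 encodes a secreted antagonist of nodal and BMP. It had 102, 59 and 8 counts and was the only member called different between libraries 1 and 2. It was not distinguished from 1 CPM over 3 libraries (adjusted p = 0.816, edgeR quasi-likelihood), and was called above it without library 3 (adjusted p = 0.000233, with its own spread ignored).

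TGF-beta ligand genes were not called different between any pair of libraries. TGFB1 stood at 5.89, 5.96 and 4.59 CPM and TGFB3 at 11.9, 11.1 and 8.90 CPM, both called above 1 CPM. TGFB2, at 46, 44 and 40 counts, could not be told from the level (adjusted p = 0.435, edgeR quasi-likelihood). No ligand gene of the activin, nodal and TGF-beta group was called lower in library 3. LTBP1, whose product holds latent TGF-beta in the matrix, had 149, 142 and 94.6 CPM. It was lower in library 3 by 1.58-fold against library 1 and by 1.4996-fold against library 2, the second just short of the fold required.

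Of 6 BMP ligand genes matched, BMP7 alone was called above 1 CPM. Its protein acts through BMP receptors in many embryonic tissues. It stood at 44.3, 44.1 and 38.3 CPM (42.2 ± 3.45, SD, n = 3), so that the 3 libraries lay close together. BMP6 and BMP8A had 61, 44 and 40 and 54, 65 and 64 counts and could not be told from the level (adjusted p = 0.907 and 0.149, edgeR quasi-likelihood). BMP8A has a close relative in BMP8B, and how reads shared by such copies were counted is not given in the sources used here, so its level is uncertain. BMP5 had 118, 102 and 0 counts, so libraries 1 and 2 were at least 30.7-fold and 25.2-fold higher than library 3, taken at the limit of 3 counts. It was not distinguished from 1 CPM over 3 libraries (adjusted p = 0.519, edgeR quasi-likelihood), and called above it without library 3 (adjusted p = 4.3e-14, with its own spread ignored). GDF5 and GDF7, ligands known from joint and nervous system development, were called below the level with 4, 10 and 4 and 7, 15 and 2 counts. GDF7 was called lower in library 3 than in library 2 (adjusted p = 0.0269, exact conditional binomial test), on these few counts.

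BMP antagonists were also unequal. CHRD, which encodes chordin, stood at 3.84, 4.86 and 4.14 CPM and was above 1 CPM. NOG, which encodes noggin, had 31, 17 and 11 counts and was called below it (adjusted p = 0.00973, edgeR quasi-likelihood). Neither was called different between any pair of libraries. Outside both arms, the oocyte factor gene GDF9 was below the level with 27, 20 and 14 counts. BMP1, which despite its name encodes a protease that processes procollagen and chordin, stood at 7.32, 7.15 and 6.79 CPM.

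Receptors of both arms were expressed, and several were lower in library 3. Of 12 receptor genes, 9 were called above 1 CPM, namely 6 of 8 in the activin/nodal and TGF-beta group and 3 of 4 in the BMP group. In library 3, 7 of the 12 were called lower than in library 1, and the same 7 were called lower than in library 2. None was called higher. Of all genes tested, 10.3% were called lower in each comparison taken singly, and 6.59% and 7.28% were called higher. No share of all genes tested called lower in both is given. ACVR1C, TGFBR2 and BMPR1B, among the 7, were under 1 CPM in library 3 itself. No receptor was called different between libraries 1 and 2.

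Type I receptor genes for activin and nodal were both lowest in library 3, and ACVR1C alone passed the fold required. ACVR1B, the main receptor gene of this kind in pluripotent cells, stood at 53.0, 51.8 and 38.8 CPM, and library 3 was lower by 1.37-fold and 1.33-fold, which missed the fold required although the counts differed (adjusted p = 1.2e-22 and 8.9e-20, exact conditional binomial test). ACVR1C, which encodes the nodal receptor ALK7, had 50, 39 and 4 counts. Its level in library 3 was 9.74-fold and 7.23-fold lower (adjusted p = 2.9e-08 and 1.1e-05, exact conditional binomial test). ACVR1C was not distinguished from 1 CPM over 3 libraries (adjusted p = 0.199, edgeR quasi-likelihood), and was called below it without library 1 (adjusted p = 0.0257, with its own spread ignored).

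The type II receptors also differed. ACVR2A stood at 20.7, 23.6 and 19.8 CPM, with no call between libraries. ACVR2B had 16.2, 15.5 and 7.73 CPM, 2.10-fold and 2.01-fold lower in library 3. The count ratio of ACVR2A to ACVR2B was thus 1.28 and 1.52 in libraries 1 and 2, and 2.56 in library 3. Both encode type II receptors that activin, nodal and some BMPs share.

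Among TGF-beta receptors, library 3 was lower for all but endoglin. TGFBR1, the type I receptor gene, had 43.5, 41.7 and 19.8 CPM, and library 3 was lower by 2.20-fold and 2.11-fold (adjusted p = 8.6e-90 and 4.5e-80, exact conditional binomial test). TGFBR3, which encodes the coreceptor betaglycan, had 30.5, 29.3 and 8.09 CPM, lower by 3.76-fold and 3.62-fold. TGFBR2, the type II receptor that TGF-beta needs, had only 74, 70 and 31 counts. It was not distinguished from 1 CPM (adjusted p = 0.404, edgeR quasi-likelihood), and was called above it without library 3 (adjusted p = 0.0121, with its own spread ignored). ENG, which encodes the coreceptor endoglin, stood at 14.5, 15.6 and 15.5 CPM and was not called different in any pair.

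All 4 BMP receptor genes were lowest in library 3, and 2 of them were called lower there. BMPR1A, a main type I receptor gene for BMPs and the highest of these by CPM, stood at 112, 112 and 81.6 CPM (102 ± 17.6, SD, n = 3). ACVR1, which encodes the type I receptor ALK2, stood at 38.9, 39.5 and 27.7 CPM. Library 3 was lower by 1.38-fold and 1.37-fold for BMPR1A and by 1.40-fold and 1.43-fold for ACVR1, all under the fold required. BMPR2, the type II receptor gene, had 25.3, 24.8 and 13.2 CPM, lower by 1.92-fold and 1.88-fold. BMPR1B had 20, 16 and 2 counts, was called below 1 CPM (adjusted p = 0.0120, edgeR quasi-likelihood) and was called lower in library 3 than in libraries 1 and 2 (adjusted p = 0.00221 and 0.0167, exact conditional binomial test). BAMBI, whose product resembles a type I receptor without a kinase and dampens signalling, had 13.4, 12.0 and 6.82 CPM, lower by 1.97-fold and 1.76-fold.

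Genes of the SMAD proteins were all above 1 CPM where an ID was matched. On the activin, nodal and TGF-beta side, SMAD2 had 32.02, 33.5 and 18.9 CPM and SMAD3 7.17, 7.37 and 6.60 CPM. On the BMP side, SMAD1 had 91.3, 96.6 and 73.0 CPM and SMAD5 41.5, 39.6 and 24.99 CPM. In each arm a single SMAD gene was called lower in library 3. These were SMAD2, by 1.70-fold and 1.77-fold, and SMAD5, by 1.66-fold and 1.59-fold. The common partner SMAD4 had 72.2, 76.5 and 44.5 CPM, lower by 1.62-fold and 1.72-fold (adjusted p = 5.5e-66 and 2.9e-86, exact conditional binomial test). The count ratio of SMAD2 to SMAD1 was 0.351, 0.346 and 0.259, and that of SMAD3 to SMAD5 was 0.173, 0.186 and 0.264, so in library 3 the first was below and the second above both other libraries. These pairs, and those of the ratios given for INHBA and ACVR2A, were chosen after the values were seen.

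Intracellular regulators were all above 1 CPM and lower in library 3. SKIL, whose product represses SMAD-driven transcription and whose gene is itself a target of activin and TGF-beta, had 99.6, 106 and 53.9 CPM, lower by 1.85-fold and 1.96-fold. Its relative SKI had 12.8, 13.1 and 8.17 CPM, lower by 1.57-fold and 1.60-fold. SMURF2, which encodes a ubiquitin ligase for SMADs and receptors, had 47.3, 42.6 and 30.5 CPM, lower by 1.55-fold against library 1 and by 1.40-fold against library 2. Against library 2 it thus missed the fold required.

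Across all matched members, 33 of 41 were lowest in library 3 and 3 were highest there, whether or not they passed the test. Against library 1, 18 of 41 members, or 43.9%, were called lower and none higher, beside 10.3% lower and 6.59% higher of all genes tested. Against library 2, 17 of 41, or 41.5%, were called lower and none higher, beside 10.3% lower and 7.28% higher. Between libraries 2 and 1, 1 member was lower in library 2 and none was higher, beside 0.743% and 0.499%. Both comparisons share library 3 and are not independent of each other. The median log2 ratio of library 3 to library 1 was −0.57 over the members and 0.00 over all genes tested, and to library 2 it was −0.48 and 0.00. The value of 0.00 is nearly set by the scaling and by genes with 0 counts in both libraries. Over genes that averaged 1 CPM or more, the median was −0.05 in each comparison.

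The same was counted by level, a division chosen after the values were seen. Of 32 members that averaged 1 CPM or more, 14 were lower in library 3 than in both others, beside 12.7% of the 13719 genes at that level. Of these, BMP5, CER1 and TGFBR2 were under 1 CPM in library 3 itself and reached the mean through the other libraries. When the 13719 genes were divided into 5 classes of equal size by mean CPM, the share lower than in library 1 was 21.9% in the lowest class, then 18.4%, 14.0%, 9.40% and 8.09% in the highest. The members called lower in those classes, in the same order, were 3 of 5, 4 of 12, 4 of 5, 3 of 6 and 2 of 4. The 3 in the lowest class were BMP5, CER1 and TGFBR2, which reached it only through libraries 1 and 2. That class therefore does not bear on the comparison with all genes. These shares are not adjusted for gene length. Part of the gap between the members and all genes may follow gene length, for which no value is given here, so nothing particular to the pathway is read from it.

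**Figure D2:**
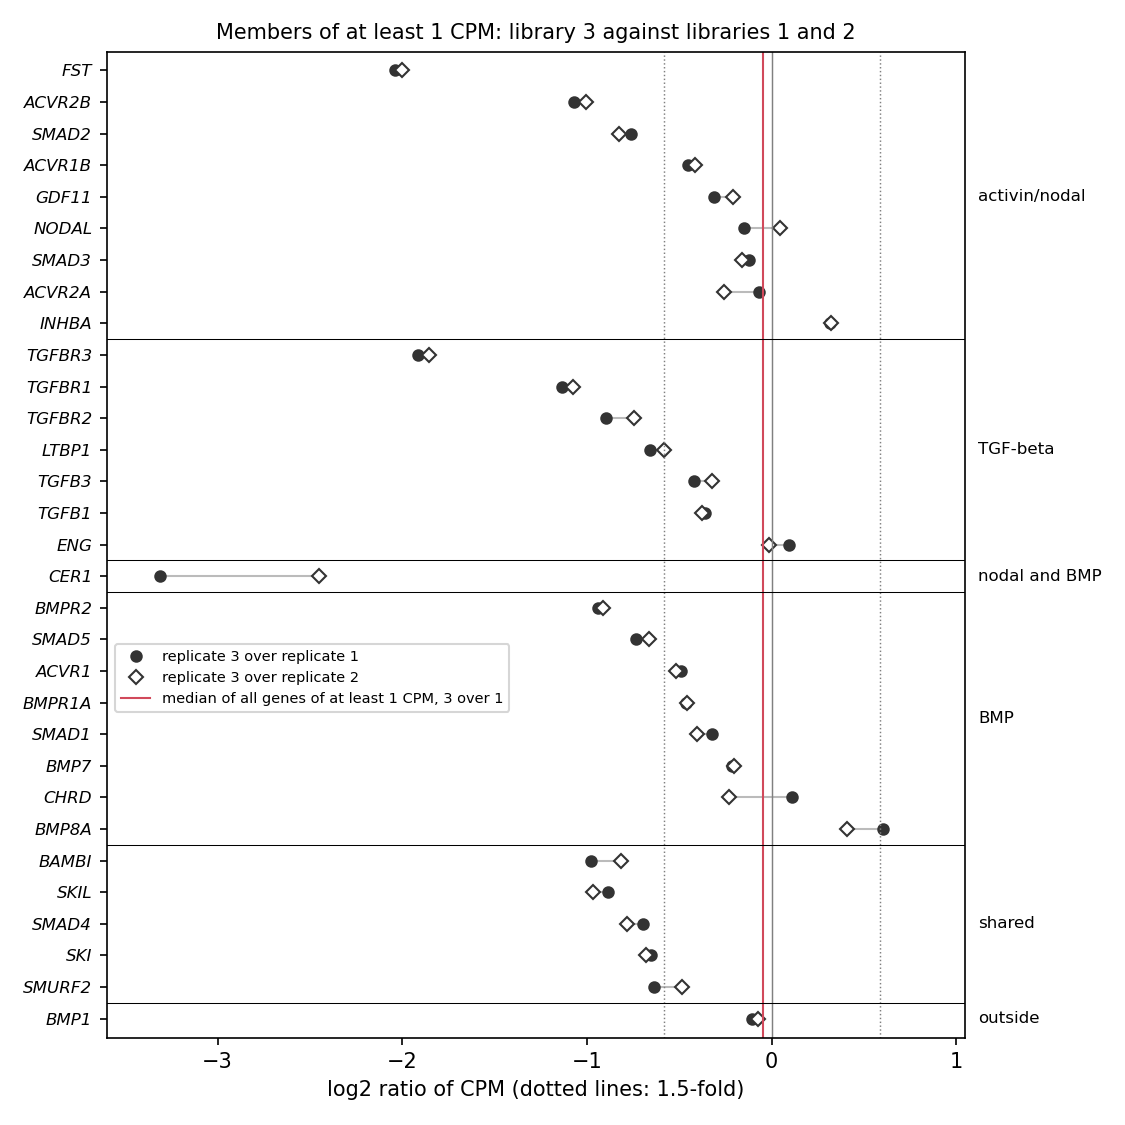
Log2 ratio of CPM in replicate 3 to replicate 1 (filled circles) and to replicate 2 (open diamonds) for members with a mean of at least 1 CPM, ordered by arm; BMP5, with 0 counts in replicate 3, is not drawn. Dotted lines mark 1.5-fold and the red line the median of all genes of at least 1 CPM, −0.05; FST, TGFBR3 and CER1 lie farthest to the left and INHBA and BMP8A to the right.

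The lower members were spread over both arms. Of 19 activin/nodal and TGF-beta members, 8 were called lower in library 3 than in library 1 and 7 than in library 2. Of 14 BMP members the counts were 4 and 5. Of all genes tested, 10.3% were called lower in each comparison taken singly. The median log2 ratio to library 1 was −0.44 in the activin/nodal and TGF-beta arm and −0.48 in the BMP arm. To library 2 it was −0.38 and −0.49. Over all genes tested it was 0.00, and over genes that averaged 1 CPM or more −0.05, in each comparison. By role, the median ratio to library 1 was −0.31 for the 7 activin, nodal and TGF-beta ligand genes, −0.98 for the 8 receptor genes of that group, −0.23 for the 6 BMP ligand genes and −0.71 for the 4 BMP receptor genes. No test between roles was made.

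**Figure D3:**
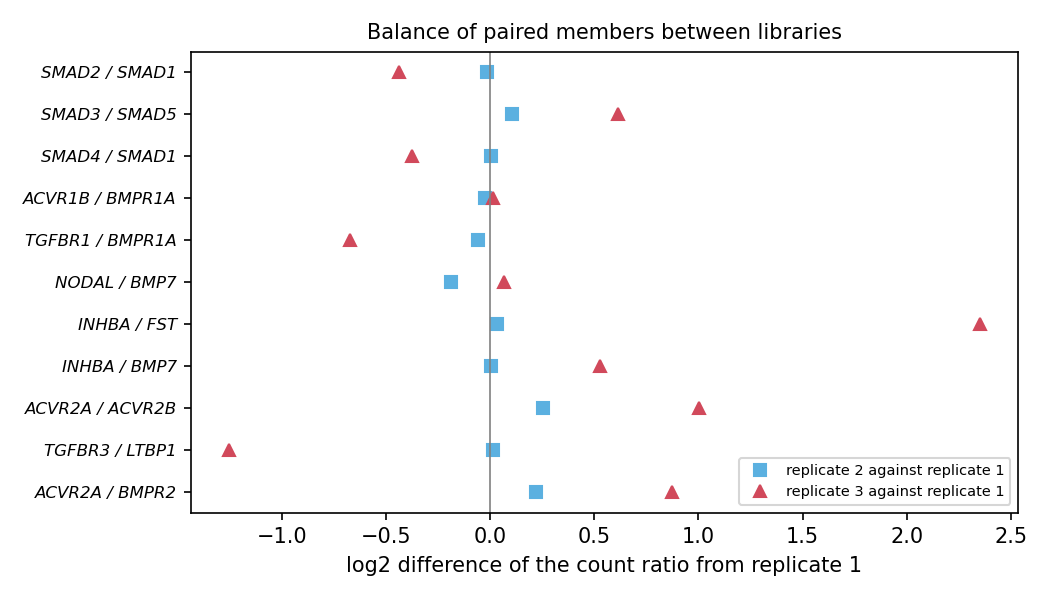
Difference in the count ratio of pairs of members from replicate 1, on the log2 scale, for replicate 2 (squares) and replicate 3 (triangles); the pairs were chosen after the values were seen. Squares lie near 0, while in replicate 3 INHBA over FST was 5.11 times its value in replicate 1, TGFBR3 over LTBP1 0.419 times and ACVR1B over BMPR1A 1.01 times.

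Genes of the pathway outside the member list were also matched, 49 of 69, of which 37 were called above 1 CPM, 6 below and 4 were not distinguished, while GDF2 and BMP10 had no counts. Of the 6 ligand genes among them, 2 were above, and GDF10 was lower in library 3 than in library 1. GDF3, a ligand gene of pluripotent cells related to nodal, stood at 148, 153 and 281 CPM. It was the highest of these ligands by CPM and, unlike any member, was called higher in library 3, by 1.91-fold over library 1 and 1.84-fold over library 2. Of 18 genes for ligand processing and extracellular control, 15 were above, with FSTL1, a follistatin-like secreted protein gene, at 1189, 1191 and 934 CPM. PCSK6, which encodes a convertase that cleaves nodal and other precursors, had 13.0, 11.8 and 4.24 CPM. FBN1 and FBN2 encode the fibrillins, to which latent TGF-beta complexes and BMPs bind. They had 19.0, 16.3 and 5.79 and 15.2, 13.3 and 2.65 CPM, so that library 3 was far below the other libraries for both. DAND5, a nodal antagonist gene, had 11, 18 and 4 counts, and BMPER, a BMP regulator gene, 23, 15 and 6. DAND5 was not called different between any pair, and BMPER was called lower only in library 3 against library 1. In this group 6 of 18 were called lower in library 3 than in library 1 and none higher, beside 10.3% and 6.59% of all genes tested.

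Of 17 genes for receptors and intracellular factors, 16 were above 1 CPM and AMHR2 was not distinguished. USP9X, which encodes a ubiquitin hydrolase that acts on SMAD4, had 572, 550 and 319 CPM. FOXH1, the DNA-binding partner of SMAD2 in nodal responses, stood at 84.9, 86.1 and 76.2 CPM with no call between libraries. It was chosen for mention after its values were seen. Against library 1, 4 of the 17 were lower in library 3 and none higher, beside the same shares of all genes.

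Target genes differed between libraries in both arms. The targets LEFTY1, LEFTY2, ID1 and ID2 of the member list were not matched, so those described come from the wider list. Of 8 activin, nodal and TGF-beta target genes listed, 4 were matched. Of these, 2 were above 1 CPM, 1 was below and 1 was not distinguished. In library 3, 3 were called lower than in each other library, among them CDKN2B, on only 7, 9 and 0 counts. TGFBI, a matrix protein gene induced by TGF-beta, had 7.15, 6.76 and 3.73 CPM. EOMES, a regulator of endoderm and mesoderm, had 120, 146 and 19 counts, 4.92-fold and 5.70-fold lower in library 3. MIXL1, a homeobox gene of the primitive streak, had 165, 115 and 93 counts. It was not called different in library 3 and was lower in library 2 than in library 1. It was chosen for mention after its values were seen.

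Of 10 BMP target genes listed, 4 were matched, and ID3, ID4, MSX2, HAND1, GATA3 and HEY1 were not. All 4 matched genes were called lower in library 3 than in each other library, as were 3 of the 4 in the other arm. In each comparison taken singly, 10.3% of all genes tested were called lower. MSX1, DLX5 and CDKN2B had 0 counts in library 3, and GATA2 and EOMES were under 1 CPM there. Their counts came mainly from libraries 1 and 2, so these shares do not bear on the comparison with all genes. GATA2, a transcription factor gene of trophoblast and amnion, had 477, 537 and 28 counts, 13.3-fold and 14.2-fold lower. TBX3 had 337, 400 and 60 counts, 4.38-fold and 4.94-fold lower. MSX1 had 21, 9 and 0 counts and DLX5 37, 37 and 0. With library 3 taken at the limit of 3 counts, libraries 1 and 2 were at least 5.46-fold and 2.22-fold higher for MSX1, and at least 9.61-fold and 9.15-fold higher for DLX5. The summed level of these 4 genes was 16.7, 17.9 and 2.16 CPM. That of the 4 activin, nodal and TGF-beta targets was 12.7, 11.7 and 6.47 CPM. With 4 genes in each, the difference between both target groups was not tested, and GATA2, EOMES and MIXL1 are also lineage markers of the lists given next.

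**Figure D4:**
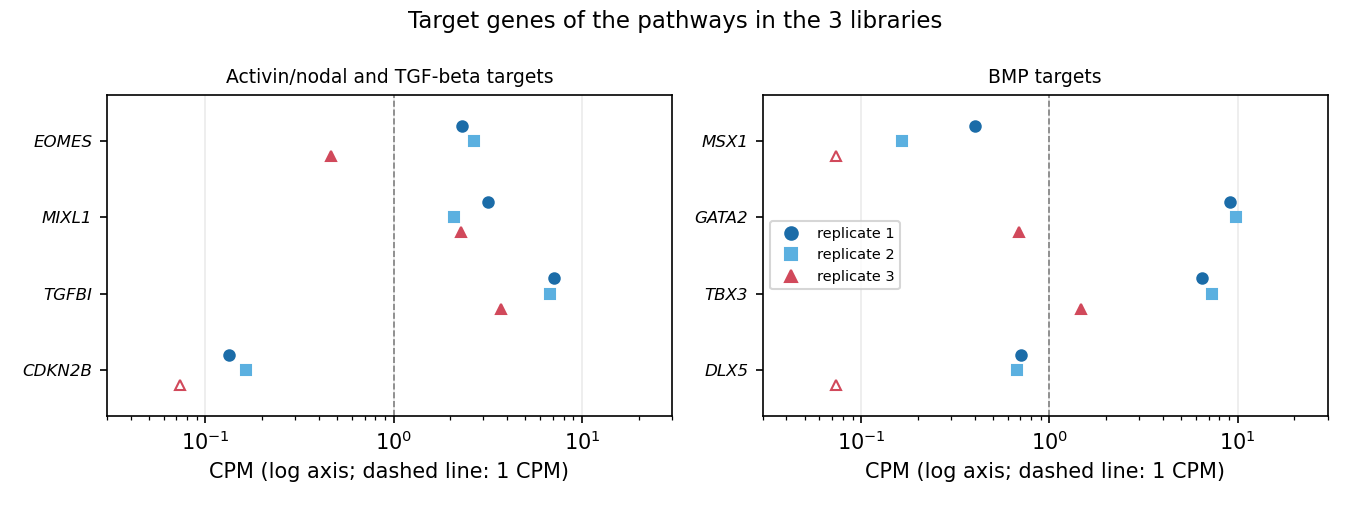
Level in CPM, on a log axis, of the matched target genes of the activin/nodal and TGF-beta pathways (left) and of the BMP pathway (right), with 1 point per library and the dashed line at 1 CPM; open points mark 0 counts, drawn at the limit of 3 counts. The triangle of replicate 3 lies below the other points for all 4 BMP targets, and for EOMES, TGFBI and CDKN2B of the other arm, and lies between the others for MIXL1.

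Markers of several other cell types were also lower in library 3. The counts of lower markers given here are against library 1, where 10.3% of all genes tested were called lower. Several lower markers, GATA6, GATA2, EOMES and CDX2 among them, were under 1 CPM in library 3 and counted mainly through libraries 1 and 2. Of 10 core pluripotency markers 8 were matched, POU5F1, NANOG and SOX2 among them, and all 8 were above 1 CPM, with summed levels of 6504, 6698 and 6418 CPM in libraries 1, 2 and 3. LIN28A, LIN28B and SALL4 were called lower in library 3. POU5F1, NANOG, DNMT3B and EPCAM were highest there, by less than the 1.5-fold required, with POU5F1 at 974, 972 and 1185 CPM. The steady sum therefore joins genes that differed in opposite directions. Endoderm markers, 8 of 9 matched, summed to 26.4, 29.0 and 11.3 CPM, with 5 lower and AFP at 0 in all libraries. Trophectoderm and amnion markers, 7 of 11 matched, summed to 33.7, 34.2 and 14.2 CPM, with 4 lower, CYP19A1 at 0 in all libraries, CDX2 at 25, 29 and 0 counts, and TP63 at 2, 6 and 0, with no call. Mesenchyme and fibroblast markers, 7 of 10 matched, summed to 763, 713 and 511 CPM, with 5 lower. Neuroectoderm markers, 7 of 8 matched, summed to 371, 359 and 310 CPM, with 3 lower, SIX3 at 2, 0 and 0 counts, and SIX6 at 0, 2 and 0, neither of them called. Blood and endothelium markers, 7 of 7 matched, summed to 125, 131 and 76.0 CPM, with 1 lower and PTPRC at 2, 4 and 0 counts, with no call. Primitive streak and mesoderm markers, 7 of 8 matched, summed to 42.4, 40.5 and 41.7 CPM, with MSGN1 at 0 in all libraries. Of these, EOMES was lower, and TBXT was called higher in library 3 than in library 2, by 1.67-fold. Several sums were mostly 1 gene, namely KDR in this list (28.1, 28.7 and 29.4 CPM), NES, COL1A1 and PECAM1 in others. Such a sum does not give the level of a cell type. KRT7, at 7.80, 8.24 and 9.86 CPM, made up most of the trophectoderm and amnion sum in library 3. KRT7, SPI1, CDH5, PAX6 and KDR were highest in library 3, and none of them was called different there. The part of the listed markers in the differences between pathway genes was not tested. In such bulk libraries fewer cells of a type and less RNA per cell cannot be told apart.

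The symbols without a matched ID, which have no value here and are not counted as absent, were GDF1, INHBB, TDGF1, LEFTY1, LEFTY2 and FSTL3 of the activin and nodal arm, BMP2, BMP3, BMP4, BMP15, GDF6, GREM1, SMAD9, ID1 and ID2 of the BMP arm, and GDF15, SMAD6, SMAD7 and SMURF1. The BMP arm thus lacks several of its best known ligand and target genes, and its counts describe only the 14 members matched. All 41 matched symbols are in RefSeq's gene table of the marmoset assembly calJac240_pri, where the span of 7 overlaps a protein-coding gene. These are GDF11, TGFB1, BMP6, BMP7, BMP8A, GDF7 and SKI. The strand setting of the counting is not given in the sources used here, so reads of such overlapping genes may not be told apart.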

How the data were processed

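RNA was sequenced in 3 libraries of 1 group. Per the labels' protocols, it was total RNA from an RNeasy Mini Kit, made into libraries by standard Illumina methods. The authors deposited raw read counts for each Ensembl ID, with no normalization. The submitters' processing notes name featureCounts 1.5.2, STAR 2.5.3a and Trim Galore 0.4.0. Build, annotation release, strand setting and multi-mapping rule were not given in the sources used here. Samples were grouped and numbered by title. IDs were matched to symbols through a name table covering 12660 of 30811 IDs. Members, gene lists and tests were chosen with earlier results of these data known. Every matched member is named, with values by library for the highest of each role, for those not above 1 CPM and for those that differ between libraries. Of other pathway genes, the highest of each group and those that differ at least 2-fold with at least 10 counts are named. 2 genes of the wider pathway list are not reported here and are left out of its counts.

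Counts were scaled with TMM factors (0.9998, 0.9957 and 1.0045) in edgeR 4.0.16, R 4.3.3. Genes with at least 1 count were fitted with an intercept, and the F statistic against 1 CPM came from the deviances of glmQLFit with trended dispersion, with the Poisson p-value as lower bound. Log2 medians used a prior count of 0.5. Pairs of libraries were tested with scipy 1.17.1, two-sided, Benjamini-Hochberg adjusted over 23432 genes. Both tests were tested on simulated data. Alternatives were total counts alone, DESeq2 1.42.0 size factors and Wald test, at least 10 counts, each library left out, at least 2-fold, halved counts and a prior count of 2.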

Additional observations from a re-analysis of the deposited data

How the results depend on the processing

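The count of members above 1 CPM was 28 under each alternative except without library 3, where it was 31, and the range on leaving out a library was 28 to 31. Members below it numbered 5 to 6. The level against 1 CPM changed sign for 3 members that were not distinguished from it. On the log2 scale and leaving out a library at a time, BMP5 (0.47 with all 3) ran from −0.082 without library 1 to 1.03 without library 3. CER1 (0.12) ran from −0.63 without library 1 to 0.59 without library 3, and BMP6 (−0.026) from −0.17 without library 1 to 0.11 without library 2. No other member's level changed sign under any alternative run. The arm medians, averaged over libraries, moved by less than their SD between libraries with a prior count of 2 and with total counts alone. Requiring at least 10 counts left them unchanged, since every member passes that filter. Leaving out a library cannot test their stability, because the average of the remaining medians always moves by less than that SD. Genes below 1 CPM numbered 8849, and 3999 among genes with at least 10 counts, since fewer genes are tested there. With at least 2-fold required, members lower in library 3 numbered 8 against library 1 and 9 against library 2, and 0 were lower in library 2 than in library 1. The corresponding counts of all genes were 1112, 1056 and 114, and 879 and 1028 genes were higher in library 3 than in libraries 1 and 2. On halved counts, in case each mate was counted, 8 genes were lower and 1 higher in library 2 than in library 1, with 0 members lower in that comparison. Against libraries 1 and 2 in turn, 16 and 14 members and 1979 and 2007 genes were then lower in library 3, and 888 and 961 genes were higher. Among genes with at least 10 counts, 1 member, BMP8A, was called higher in library 3 than in library 1, as fewer genes are adjusted for. Its ratio was 1.52 with an adjusted p of 0.0545 over all genes (exact conditional binomial test). In fits on 2 libraries each gene's spread came from the trend alone, so their p-values are too small for variable genes. No paired analysis was possible because only 1 group was sequenced. Levels per kilobase were not run, since lengths for the counted annotation were not used. Depth limits GDF5, GDF7, GDF9, BMPR1B and NOG, which rest on at most 31 counts in a library.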
